A study of Homo sapiens with 12 samples.

Results

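The 10 genes described here run the passage of a cell from G1 into S phase: the D-type cyclins CCND1, CCND2 and CCND3, the E-type cyclin CCNE1, the cyclin-dependent kinases CDK4, CDK6 and CDK2, the kinase inhibitor CDKN1B (p27), the retinoblastoma protein gene RB1 and the transcription factor E2F1. They were listed by name, 10 of 20037 protein-coding genes on GRCh38, and a peak was counted for a gene when its midpoint fell inside the gene's span on the strand of the gene. The study measured N4-acetylcytidine (ac4C), an acetylated base of RNA, by acetylated RNA immunoprecipitation sequencing (acRIP-seq), in which RNA fragments bound by an antibody against ac4C are sequenced and modified stretches appear as peaks. It did so in SW620, an established human colorectal cancer cell line, with 3 libraries of cells given a control shRNA (shControl, genotype labelled WT) and 3 of cells given an shRNA against NAT10 (shNAT10, genotype labelled NAT10 knockdown). NAT10 is the enzyme that writes ac4C. The cells of both groups were stable lines made with lentivirus and selected with puromycin, grown in L15 medium with serum. Which of the study's shRNAs was used for these libraries, and whether the 3 libraries of a group came from separate cultures, is not given in the sources used here, so p-values measure only the spread between libraries, which may be technical. The study also followed the cell cycle of NAT10-depleted cells, and the comparison here asks whether ac4C peaks on transcripts of the G1 machinery differed between the groups. A peak list does not measure the amount of an mRNA, so a change in ac4C and a change in the level of the transcript cannot be told apart from it.

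In G1, mitogens raise D-type cyclins, which bind and activate CDK4 and CDK6. These kinases begin the phosphorylation of the retinoblastoma protein, and cyclin E with CDK2 completes it. E2F factors released from the retinoblastoma protein switch on the genes of DNA replication and also E2F1 and CCNE1. CDKN1B binds cyclin-CDK complexes and holds CDK2 inactive. ac4C lies on ribosomal and transfer RNA and has been mapped on messenger RNA, where it has been linked to stability and translation.

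The lists held 18241, 22619 and 20063 peaks in control replicates 1, 2 and 3 and 28752, 17877 and 19047 in knockdown replicates 1, 2 and 3, so knockdown replicate 1 had the longest list. They give a position, a strand and a score for each peak and no read counts, so the depth is unknown and a missing peak means only that none was listed. Scores started at 50 and stood at exactly 3100 for 7.61% to 13.7% of a library's peaks. For that reason a score was read only as a percentile within its own library, where 100 is the highest and tied scores share their middle rank. The gene targeted by the shRNA, NAT10, listed 1, 0 and 2 peaks in the control replicates against 2, 0 and 1 in the knockdown replicates, which does not measure its mRNA. Peaks were listed for 8 of 12 markers of colorectal epithelium, and for 5 of them throughout the 6 libraries, while KRT18, KRT20, CDX1 and GPA33 had none. Of 8 markers of blood, stroma and endothelium, 6 had none, and COL1A1 and VWF listed 6 peaks each over the 6 libraries. Neither COL1A1 nor VWF had a peak in every library.

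Peaks were listed for 7 of the 10 genes, and 6 of these carried one in each of the 6 libraries. CCND2, CDK4 and CDK2 had no peak in any library. Over the 20037 protein-coding genes, 61.3% carried a peak somewhere among the libraries and 29.8% did so in each of them. The summed peak numbers of the 10 genes were 12, 11 and 12 for the control replicates against 14, 10 and 11 for the knockdown replicates. Control cells averaged 11.7 ± 0.577 (SD, n = 3) and knockdown cells 11.7 ± 2.08 (SD, n = 3), so the summed number did not move, and the highest and the lowest total were both knockdown libraries. As a share of all peaks listed, the genes took 0.0581% ± 0.00871 (SD, n = 3) in control cells against 0.0541% ± 0.00479 (SD, n = 3) in knockdown cells.

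**Figure D1:**
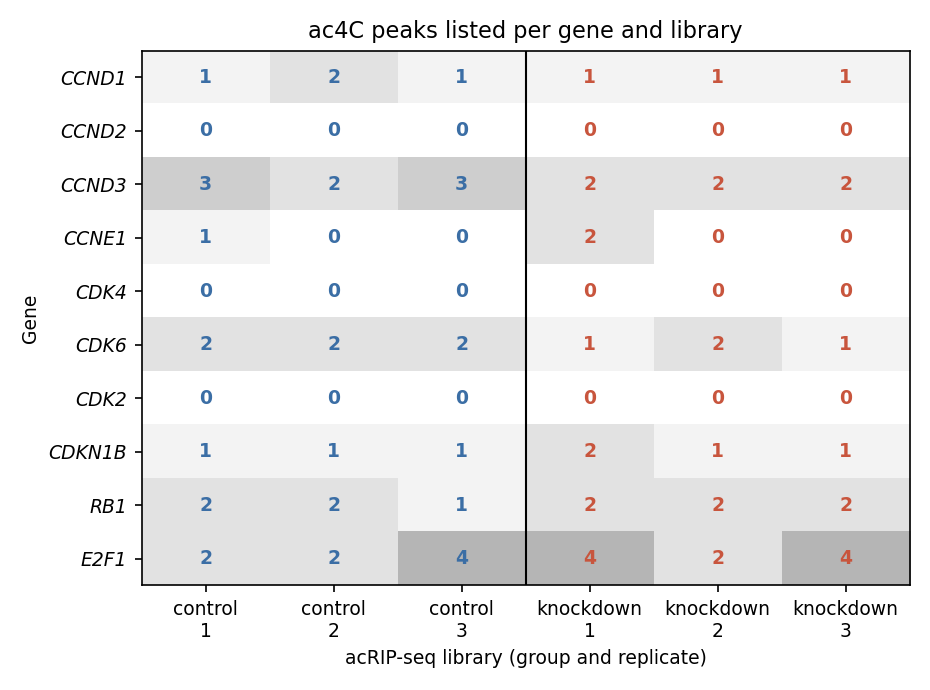
Number of ac4C peaks (digit and shade) listed in each of the 10 genes (rows) in each of the 6 libraries (columns, control in blue and NAT10 knockdown in red). CCND2, CDK4 and CDK2 are at 0 throughout, 6 genes have a peak in every library, and in no gene do the control values all lie on one side of the knockdown values.

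No gene of the 10 was listed throughout one group and missing from the whole of the other, a pattern found in 0.700% of the 12292 genes with a peak. None had peak numbers that did not overlap between the groups, which held for 2.22% of those genes. With 3 libraries against 3 the two-sided exact permutation test cannot give a p below 0.1, and the adjusted p was 1 for every gene tested, so no count could pass a threshold of 0.05. The 7 genes with peaks formed 19 merged regions, a region being a stretch of overlapping peaks on the same strand. Of the 19, 0 had peaks throughout one group and in none of the other, against 1.16% of the 41755 merged regions. In 6 of the 19 regions all 6 libraries had a peak, and 4 regions rested on a single library.

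Several peaks covered the annotated start of the gene and reached into the sequence before it. For 4 such starts with a RefSeq promoter window (GRCh38.p14), the 250 bases before the start are printed here 5′ to 3′ on the strand of the gene, with capitals marking the bases that lie under a peak in at least 1 library. They show how far each peak reaches past the start, and none of the bases after it are shown. CDKN1B lies at chr12:12717118-12717367 (plus strand), CDK6 at chr7:92836574-92836823 (minus strand), E2F1 at chr20:33686386-33686635 (minus strand) and CCND3 at chr6:41941809-41942058 (minus strand).
CDKN1B: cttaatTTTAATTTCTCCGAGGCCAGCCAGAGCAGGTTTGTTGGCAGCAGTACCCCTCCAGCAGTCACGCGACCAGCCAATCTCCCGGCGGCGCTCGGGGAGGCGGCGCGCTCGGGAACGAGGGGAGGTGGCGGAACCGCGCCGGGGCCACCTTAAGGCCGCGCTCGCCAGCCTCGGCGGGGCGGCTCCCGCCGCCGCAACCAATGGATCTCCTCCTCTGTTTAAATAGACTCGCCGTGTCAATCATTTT
CDK6: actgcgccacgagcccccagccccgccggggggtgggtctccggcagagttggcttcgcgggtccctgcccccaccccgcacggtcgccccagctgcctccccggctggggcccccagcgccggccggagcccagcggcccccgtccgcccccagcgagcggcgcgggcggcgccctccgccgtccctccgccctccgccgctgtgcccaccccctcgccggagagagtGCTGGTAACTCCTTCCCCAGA
E2F1: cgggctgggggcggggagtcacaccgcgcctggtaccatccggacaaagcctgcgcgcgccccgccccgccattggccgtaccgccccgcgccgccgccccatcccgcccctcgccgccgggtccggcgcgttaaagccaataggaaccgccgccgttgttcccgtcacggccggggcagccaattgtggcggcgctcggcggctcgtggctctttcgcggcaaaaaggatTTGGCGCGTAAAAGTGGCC
CCND3: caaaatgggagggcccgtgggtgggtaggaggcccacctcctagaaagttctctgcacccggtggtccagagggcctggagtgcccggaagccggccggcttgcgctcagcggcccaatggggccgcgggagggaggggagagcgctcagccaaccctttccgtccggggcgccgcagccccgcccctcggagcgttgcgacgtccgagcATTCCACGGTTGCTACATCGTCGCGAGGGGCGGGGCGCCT

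The peak covered 244 of these bases in CDKN1B, 21 in CDK6, up to 19 in E2F1 and up to 40 in CCND3 at this start. CCND3 has another start, at 42048688, whose window is not printed. The 250 bases before it were 74.4% G and C, and 3 libraries listed a peak that reached into them. In control replicate 1 and knockdown replicate 1 that peak covered all 250 bases. In control replicate 3 it ended at 42048919 and covered only part of them. The 4 printed stretches were rich in G and C, with 64.4% in CDKN1B, 80.0% in CDK6, 72.4% in E2F1 and 71.2% in CCND3, against a median of 58.0% over the 35116 windows in the table. Most member stretches with no base under a peak were also above that median. They held 81.2% in CCNE1, 67.6% at a further CDK6 start, 65.6% in CDK4 and 61.2% at a further CCND3 start, but 36.8% in RB1. The RB1 window lies at an internal start, 48476450, so the bases before the first base of RB1 were not examined. The windows were searched on both strands, from 250 bases before to 50 bases after the start, for the E2F sequences TTTCCCGC, TTTCGCGC, TTTGCCGC and TTTGGCGC. E2F1 alone among the 10 member windows of 7 genes held any, 2 matches beginning 33 and 20 bases before its start, and 3.31% of all windows held at least 1. The match at 20 bases is the TTTGGCGC whose first letter is the last lower-case letter before the capitals. The edge of the E2F1 peak fell inside it in the 4 libraries whose peak reached past the start. In control replicates 1 and 2 the peak ended at the start itself. The GC box GGGCGG, bound by SP1, was found in 7 of the 10 member windows and in 45.0% of all windows, and it shared no bases with the E2F matches. A match describes letters only and is not a measured site.

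CCND1, the cyclin that activates CDK4 and CDK6 in most epithelial cells, spans 69641156 to 69654474 on chromosome 11. It had a peak in every library, but libraries listed it at opposite ends of the gene. Control replicates 1 and 2 and knockdown replicate 1 listed the same peak of 425 bases from 69641087 to 69641511, which begins 69 bases before the annotated start. Control replicate 3 and knockdown replicates 2 and 3 listed none there and instead a peak of 3357 bases from 69651118 to the last base of the gene. Every one of these 6 peaks had a score of 3100. Both kinds of peak occurred in both groups, so the end at which CCND1 was listed did not go with NAT10 status. Peaks at least as long as the one at the 3′ end made up 0.289% to 1.11% of a library. Over all genes, 500 merged regions had a peak in exactly the first 3 of these libraries and 219 in exactly the other 3, and CCND1 was 1 of 19 genes holding a region of each kind. A further peak of CCND1, from 69647994 to 69648240, was listed only in control replicate 2, at the 61.4 percentile. CCND1 is not in the promoter table, so its strand was taken from its own peaks, which all lay on the plus strand.

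CCND3, the D-type cyclin most used in lymphoid cells and also present in epithelia, spans 41934933 to 42050035 on the minus strand of chromosome 6, with several annotated starts. It listed 3, 2 and 3 peaks in control libraries and 2 in each knockdown library. The means were 2.67 ± 0.577 (SD, n = 3) and 2 ± 0 (SD, n = 3), and the ranges met at 2 (two-sided exact permutation test, p = 0.4). Without control replicate 2 the ranges no longer met, with 3 and 3 peaks against 2, 2 and 2. In that setting the peak numbers of 5.19% of all genes with a peak did not overlap, against 2.22% with all libraries. The peak number difference of CCND3, knockdown minus control, was -0.667 with all peaks. It turned to 0.667 with the upper 50% of each list by score. Most CCND3 peaks lay around the start at 41941808. Control replicate 3 and knockdown replicates 1 and 2 listed the same peak from 41941452 to 41941848, and control replicate 2 a slightly shorter one ending at 41941822. Control replicate 1 and knockdown replicate 3 instead listed a peak beside it, ending at 41941519 and starting at 41940952 and 41941048. A second stretch, from 41940370 to 41940726, was listed with identical ends in control replicates 2 and 3 and knockdown replicates 2 and 3. Far upstream, over the start at 42048688, a peak was listed in control replicates 1 and 3 at the 4.8 and 19.0 percentile and in knockdown replicate 1 at the 70.6 percentile. A peak from 42030009 to 42030129 was listed only in control replicate 1, at the 1.1 percentile.

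CCND2, the remaining D-type cyclin, spans 4273762 to 4305353 on chromosome 12 and listed 0 peaks in each of the 6 libraries, as did 7745 of the 20037 protein-coding genes. CCNE1, the cyclin that activates CDK2, spans 29811991 to 29824312 on chromosome 19. It listed 1, 0 and 0 peaks in control replicates against 2, 0 and 0 in knockdown replicates (p = 1, exact permutation). A peak ending at 29817282 was listed in control replicate 1 and knockdown replicate 1, at the 5.9 and 8.0 percentile. The other peak of knockdown replicate 1 began at the first base of the gene, 29811991, and stood at the 22.0 percentile. All CCNE1 peaks were thus among the low-scored ones of their libraries. Without knockdown replicate 1 the difference in peak number, knockdown minus control, went from 0.333 to -0.333.

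Of the 3 kinases, only CDK6 carried peaks. CDK4, the partner of D-type cyclins in most cells, spans 57747727 to 57752310 on chromosome 12, and CDK2, the partner of cyclins E and A, spans 55966830 to 55972789 on the same chromosome. Neither had a peak on any strand in any library. CDK6 spans 92604921 to 92836573 on the minus strand of chromosome 7, and all its peaks lay near the 5′ end, the farthest beginning 2883 bases from the start. All 6 libraries listed the same peak from 92833091 to 92833690, at the 90.0, 87.7 and 85.1 percentile in control and the 92.7, 86.0 and 85.1 percentile in knockdown libraries. A second, shorter peak of 117 bases, from 92836478 to 92836594, covered the start of the gene. It was listed in control replicates 1, 2 and 3 at the 79.9, 74.0 and 78.2 percentile and in knockdown replicate 2 at the 72.1 percentile, and not in knockdown replicates 1 and 3. CDK6 therefore listed 2, 2 and 2 peaks in control against 1, 2 and 1 in knockdown cells, with means of 2 ± 0 (SD, n = 3) and 1.33 ± 0.577 (SD, n = 3) (two-sided exact permutation test, p = 0.4). The start peak was thus present in all control and 1 of 3 knockdown libraries. Exactly these libraries, the control libraries and knockdown replicate 2, held a peak in 70 of the merged regions, or 0.168%. Regions with all control libraries and a different single knockdown library were not counted. Without knockdown replicate 2 the start peak was listed in control only. In that setting 2.45% of all merged regions had peaks throughout one group and in none of the other. The same peak numbers of CDK6 were found with the upper 50% of each list by score and with equal peak numbers.

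CDKN1B spans 12717368 to 12722369 on the plus strand of chromosome 12. All 6 libraries listed the same peak of 1191 bases from 12717124 to 12718314, which begins 244 bases before the annotated start. Its score stood at the 69.6, 31.3 and 61.3 percentile in control and the 80.0, 70.7 and 69.7 percentile in knockdown libraries, so the control libraries varied more than the knockdown libraries did. Knockdown replicate 1 listed a further peak from 12718825 to 12718922, at the 3.8 percentile. The gene therefore had 1 peak in each control library and 2, 1 and 1 in the knockdown replicates (p = 1, exact permutation), numbers shared by 221 protein-coding genes.

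RB1, which restrains E2F factors until it is phosphorylated, spans 48303751 to 48481890 on the plus strand of chromosome 13. Its peaks on the plus strand all lay near the 5′ end. A peak of 127 bases from 48307280 to 48307406, beginning 3529 bases from the start, was listed with the same ends in all 6 libraries. It stood at the 57.0, 75.2 and 74.2 percentile in control and the 92.7, 66.1 and 76.1 percentile in knockdown libraries, and the groups overlapped. A peak over the start, from 48303726 to 48304049, was listed in every library but control replicate 3, as were 579 merged regions. It stood at the 74.1 and 80.5 percentile in control replicates 1 and 2 and at the 92.7, 71.4 and 79.1 percentile in knockdown replicates 1, 2 and 3. RB1 thus had 2, 2 and 1 peaks in control against 2, 2 and 2 in knockdown replicates (p = 1, exact permutation). On the opposite strand, inside the span of RB1, knockdown replicates 1 and 2 listed 1 peak each, from 48411944 to 48412157 and from 48426859 to 48426907. Both lay within LPAR6, a gene nested in RB1, and they were not counted for RB1.

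E2F1, the activator that RB1 holds back, spans 33675477 to 33686385 on the minus strand of chromosome 20 and had the most peaks of the 10 genes. It listed 2, 2 and 4 peaks in control against 4, 2 and 4 in knockdown replicates, with means of 2.67 ± 1.15 (SD, n = 3) and 3.33 ± 1.15 (SD, n = 3) (two-sided exact permutation test, p = 1). No other protein-coding gene had the same 6 numbers. A peak at the start, from 33686004, was listed in all 6 libraries and ended at 33686385 in control replicates 1 and 2 and at 33686404 in the other 4. An internal peak from 33679755 to 33679974 was listed with the same ends in all 6 libraries. Toward the 3′ end, peaks from 33678201 to 33678353 and from about 33675683 to 33676979 were listed in control replicate 3 and knockdown replicates 1 and 3, and in no other library. Where listed, these ranked higher in the control than in the knockdown libraries. The one nearest the 3′ end stood at the 70.2 percentile in control replicate 3 and at 16.0 and 20.8 in knockdown replicates 1 and 3, and the one beside it at 43.5 against 17.0 and 12.6. With 1 control library listing them, the spread in control is unknown and no test was made.

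**Figure D2:**
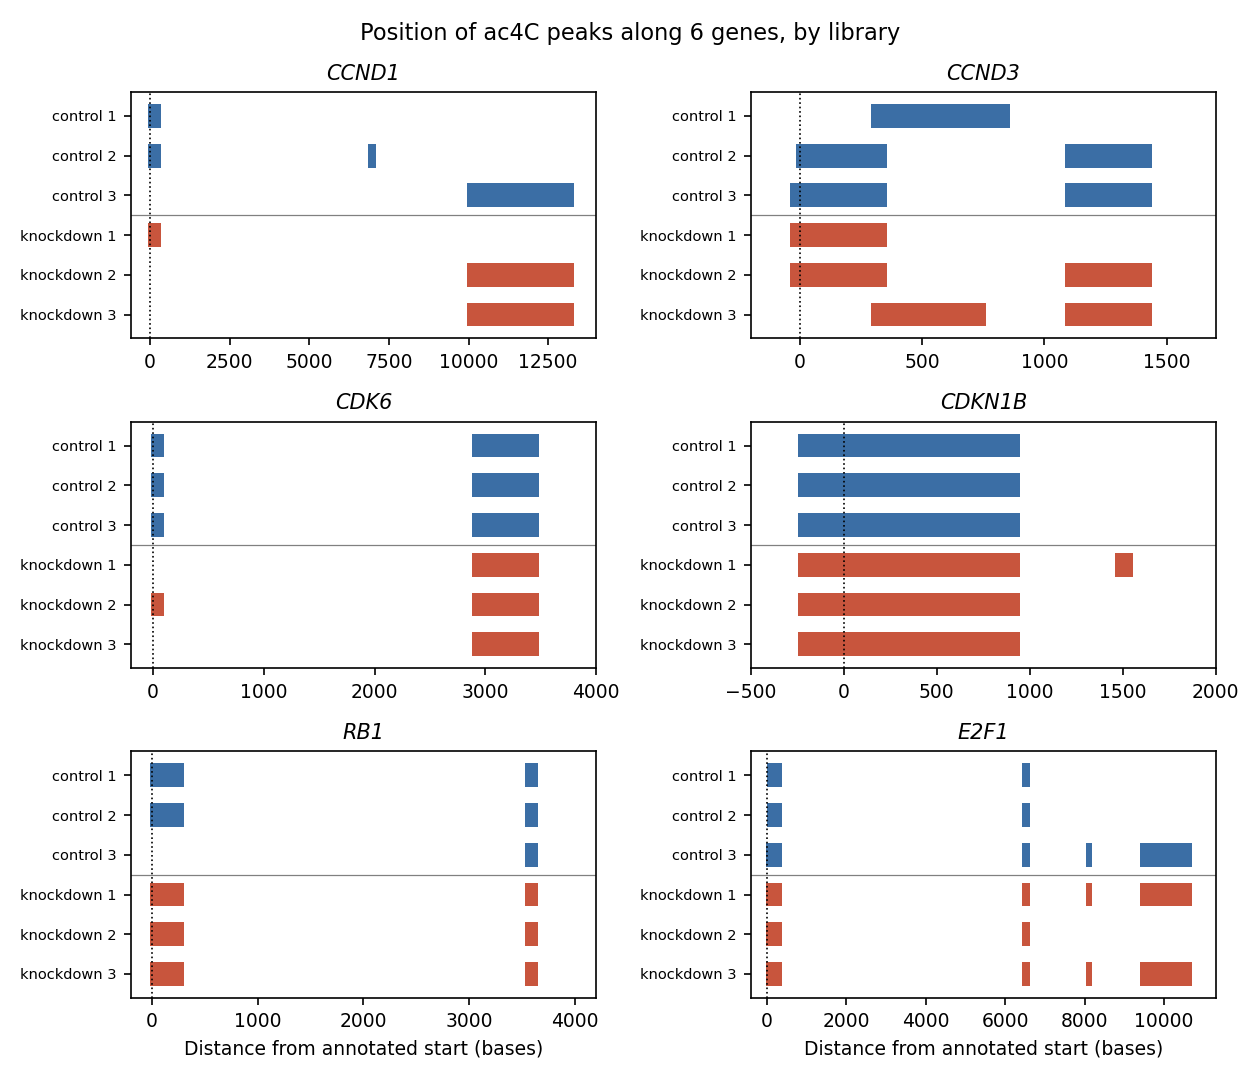
Peaks (bars) along CCND1, CCND3, CDK6, CDKN1B, RB1 and E2F1 in each library (rows, control in blue above the grey line and NAT10 knockdown in red below it), as distance in bases from the annotated start (dotted line; for CCND3 the start at 41941808, with peaks further upstream left out) in the direction of transcription. The CCND1 peaks stand at the start in 3 libraries and at the 3′ end in the other 3, and the CDK6 peak at the start is missing in knockdown replicates 1 and 3.

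The ends of many peaks were the same to the base. In 4 of the 6 regions that all libraries shared, those of CDK6, CDKN1B, RB1 and the interior of E2F1, every library gave the same start and end. This was true of 68.9% of all 9195 regions with a peak in all 6 libraries, so it was common in these lists.

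For the 6 regions that all libraries shared, the score percentiles of the groups were compared. Those of 2 regions, in CCND3 and CDKN1B, did not overlap and were higher in knockdown libraries, against 6.98% of the 9195 shared regions higher in knockdown. None of the 6 was lower in knockdown without overlap, against 4.05% of the 9195. In CCND3 the control replicates stood at 66.1, 56.8 and 64.1 and the knockdown replicates at 76.7, 82.3 and 78.7, with means of 62.3 ± 4.87 (SD, n = 3) and 79.2 ± 2.82 (SD, n = 3). The peaks behind them were not the same in every library. Where the same peak was listed, it stood at 64.1 in control replicate 3 and at 76.7 and 82.3 in knockdown replicates 1 and 2. In CDKN1B the means were 54.0 ± 20.1 (SD, n = 3) and 73.5 ± 5.68 (SD, n = 3), and the highest control value, 69.6, lay just under the lowest knockdown value, 69.7. Percentiles depend on the length of the list. With the 17877 highest-scored peaks of each library, both regions overlapped between the groups, CCND3 with 65.4, 45.4 and 59.7 against 62.6, 82.3 and 77.3 and CDKN1B with 68.9, 13.1 and 56.5 against 67.9, 70.7 and 67.8.

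In E2F1 the peak at the start stood at 66.3, 46.7 and 79.9 in control against 92.7, 72.5 and 60.5 in knockdown replicates, and the internal peak at 2.0, 29.2 and 49.7 against 24.8, 42.7 and 17.5. These groups overlapped widely, as did those of RB1 and CDK6. The mean percentile was higher in knockdown in all 6 regions, by a median of 10.2 points, from 0.333 in CDK6 to 19.5 in CDKN1B. Over all 9195 shared regions the median difference was 0.703 points and 53.7% were higher in knockdown. A difference at least as high as that of CDKN1B was found in 6.49% of the shared regions, and one as high as that of CCND3 in 8.80%. Without knockdown replicate 1, in which the RB1 peak, the CDK6 peak and the E2F1 start peak all had a score of 3100, 5 of the 6 were higher and the median was 2.72 points, while over all shared regions the median turned to -1.07 points and 45.8% were higher. The count of 5 was also found without control replicate 1, control replicate 3 or knockdown replicate 2. All 6 stayed higher only without control replicate 2 or knockdown replicate 3. The median of the 6 was 5.25 points without control replicate 2, 15.3 without control replicate 3, and 7.77, 13.8 and 13.9 without control replicate 1, knockdown replicate 2 and knockdown replicate 3. With tied scores at their lowest rank, the CDK6 difference turned to -1.95 points.

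**Figure D3:**
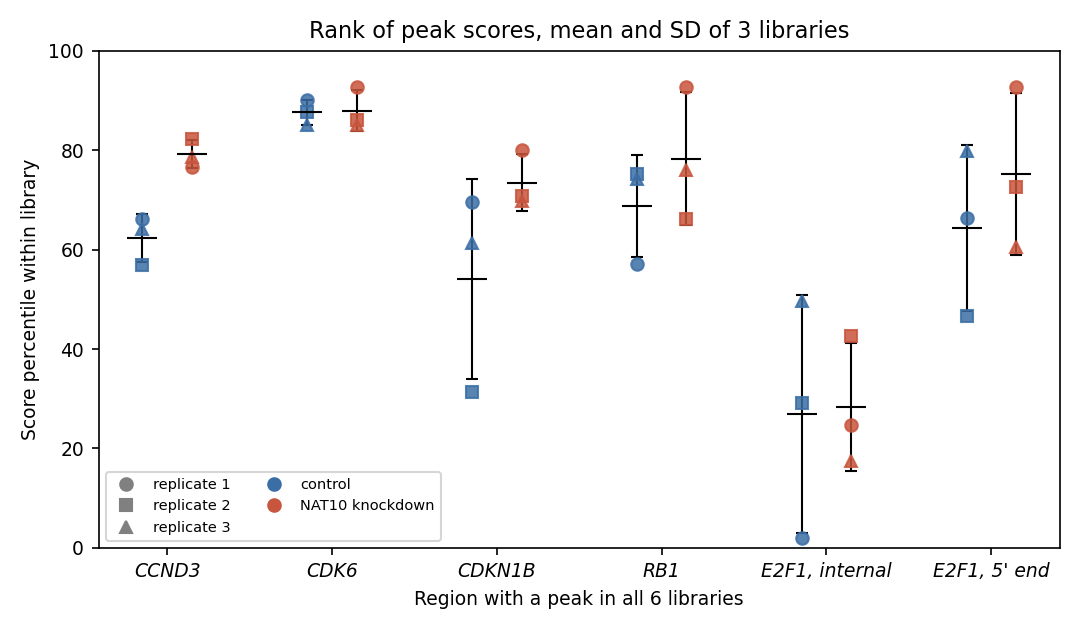
Score percentile within the library (vertical axis, 0 to 100) of the 6 regions with a peak in all 6 libraries, for control (blue) and NAT10 knockdown (red). Points are libraries, with the shape giving the replicate, and black lines are the mean and SD of 3 libraries. The groups do not overlap in CCND3 and, by 69.6 against 69.7, in CDKN1B.

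Another 32 genes of the G1 and S phase machinery, listed by role, were counted in the same way. Peaks were listed for 26 of them, for 20 throughout the 6 libraries, and 6 had none: CCNA1, CCNH, MNAT1, E2F4, TFDP2 and SKP2. As in the 10 genes, 0 were listed throughout one group and missing from the whole of the other, against 0.700% of all genes with a peak. Peak numbers that did not overlap between the groups were found in 0, against 2.22% of all genes with a peak. FBXO31, the subunit of a ubiquitin ligase that targets cyclin D1, had the most peaks, with 4, 3 and 6 in control against 9, 7 and 6 in knockdown replicates (p = 0.2, exact permutation), and the ranges met at 6. E2F2, an activator like E2F1, had 2, 2 and 3 peaks in control against 6, 4 and 2 in knockdown replicates (p = 0.4 by the same exact test). TFDP1, the partner with which E2F factors bind DNA, had 3, 3 and 4 peaks in control against 2, 3 and 3 in knockdown replicates (exact permutation p = 0.6). CDKN2A, which encodes the CDK4 and CDK6 inhibitor p16, had 3 peaks in every library. The adjusted p was 1 for each of them.

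**Figure D4:**
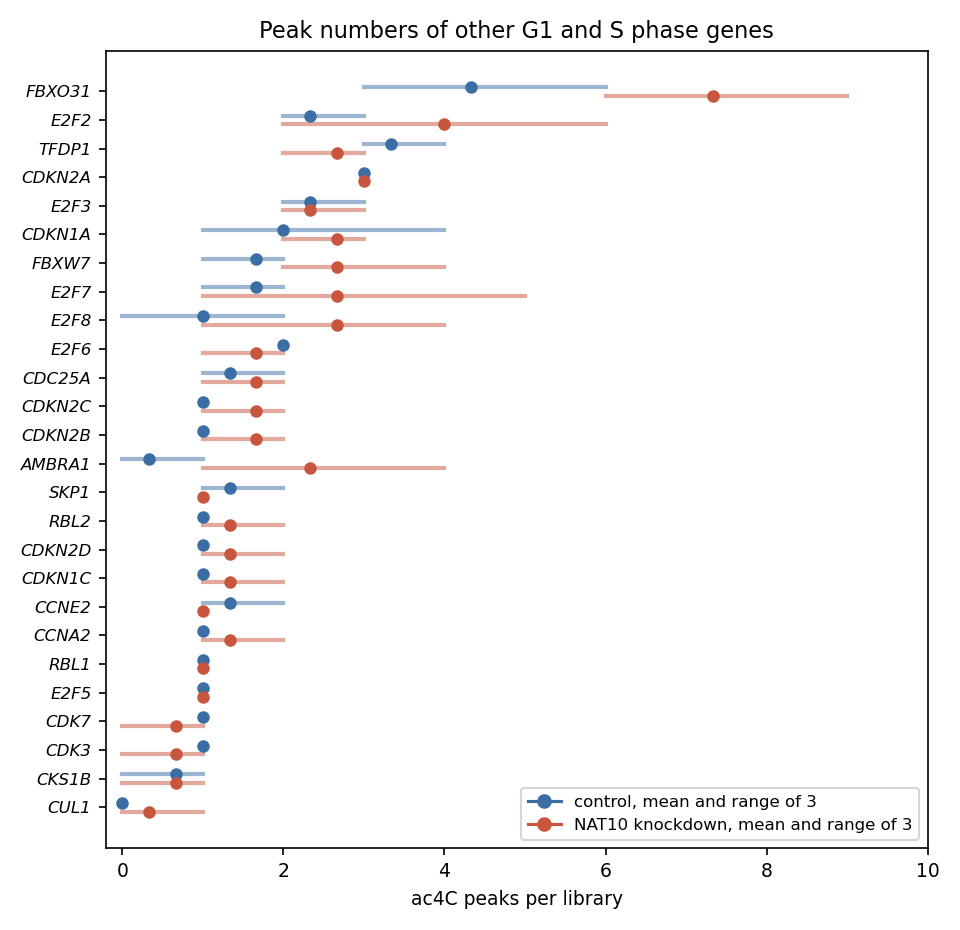
Number of ac4C peaks per library (horizontal axis) in the 26 other G1 and S phase genes with a peak, for control (blue) and NAT10 knockdown (red). Points are means and lines the range of 3 libraries. The ranges of the groups meet or overlap in every gene, FBXO31 meeting at 6.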

How the data were processed

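acRIP-seq peaks of 3 shControl and 3 shNAT10 immunoprecipitation libraries of SW620 cells were used, mapped to groups by their titles. The 6 input libraries were not analysed here. The authors deposited 1 peak list per library, limited to mRNA by its name and without pooling, with a score per peak whose definition, aligner, caller version and filters are not given in the sources used here. Peak names have the form MACS gives, and GRCh38 is the build named in the submitters' processing notes. The listed starts, counted from 0, were changed to count from 1.

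Gene spans came from RefSeq (GRCh38.p14, 20037 protein-coding genes). Strands came from the promoter table for 15843 genes and otherwise from most peaks in the span (2384 genes). Of the 10 genes, 7 were in the promoter table. Its RB1 window lies at an internal start, and CCND1, CCND2 and CDK2 have none. Exons were not annotated here. Regions were merged from peaks overlapping by at least 1 base on a strand. A two-sided exact permutation test compared the peak numbers of the groups, with Benjamini-Hochberg adjustment over 12292 genes. Of the other genes, those with non-overlapping numbers and the 3 highest mean peak numbers (with ties) among those in all 6 libraries were to be named, and the genes at 0 were added after their values were seen. The 10 genes and the lists were chosen with earlier results of these data known. Alternatives were the upper 50% of each list by score, equal peak numbers (17877), any overlap with the gene span, peaks in 1 gene only, at least 50% of a region covered, merging without strand, tied scores at the lowest or highest rank, a replicate block and leaving out single libraries. Counting peaks on either strand was chosen after seeing the data. The code was tested on simulated lists. Python 3.11.15, numpy 2.4.6, pandas 2.3.3 and matplotlib 3.10.9 were used.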

Additional observations from a re-analysis of the deposited data

How the results depend on the processing

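No gene of the 10 was listed throughout one group and missing from the whole of the other under any setting run. The difference in their summed peak number, 0 with all peaks, lay between -1.33 and 0.833, within the SD of 2.08 of the knockdown libraries. Genes with non-overlapping peak numbers went from 0 to 1 without control replicate 2 (CCND3, lower in knockdown) and without knockdown replicate 2 (CDK6, lower in knockdown). They ranged from 0 to 1 over the libraries left out. So did regions with peaks throughout one group and in none of the other (the CDK6 start peak, without knockdown replicate 2). Over all merged regions the share with peaks throughout one group and in none of the other was 1.16% with all libraries. It was 2.3% to 3.45% without a library. The 2 regions with non-overlapping percentiles became 1 with the upper 50% of each list (CCND3), 1 with at least 50% of the region covered (CDKN1B) and 0 with equal peak numbers, where 6.12%, 7.08% and 6.52% of all shared regions were higher in knockdown. They ranged from 2 to 3 over the libraries left out, RB1 joining without knockdown replicate 2, where 11.4% of all shared regions were higher. Groups that do not overlap cannot come to overlap when a library is dropped, so the lower end of 2 says nothing on stability. Among the other G1 and S phase genes, equal peak numbers gave 1 (CDKN1A, higher in knockdown), and leaving out a library gave between 1 and 3, among them FBXO31 without control replicate 3 or knockdown replicate 3 and E2F2 without knockdown replicate 3, all higher in knockdown. Leaving out a library eases the criterion: over all genes, 2.22% did not overlap with all libraries and 4.61% to 6.52% without a library. The peak number difference of CCND3 turned to 0.667 with the upper 50% of each list. That of CCNE1 turned to -0.333 with equal peak numbers, and lay between -0.333 and 0.667 over the libraries left out. The cause of these changes was not tested. Under a replicate block the summed difference was 0, as without it. This was fixed in advance, since the mean of same-numbered differences equals the difference of the group means, so it says nothing on stability. The replicate numbers gave no pairing: deviations from the group means, taken over regions, correlated at 0.0295, 0.00234 and 0.0318 between libraries of the same number. Depth is unknown, which limits what a missing peak can show.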
